A study of Drosophila melanogaster with 24 samples.

Results

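Gene expression differences that went with *lid* dsRNA in *Sin3A* knockdown cells were read from the deposited RNA-seq tables of *Drosophila* S2 cells. S2 cells are a cultured line of embryonic origin with features of plasmatocytes, the phagocytic blood cells of the fly. The dual knockdown, with dsRNA against both *Sin3A* and *lid*, was compared with the *Sin3A* knockdown, and neither group had received paraquat, a compound that produces superoxide inside cells. A locus was included if it reached 1 FPKM, fragments normalised to transcript length and to the mapped fragments of the library, in one of the 2 groups. This held for 7677 of the 14542 gene loci of the tables. The *Sin3A* knockdown cells had received dsRNA against *Sin3A* alone and the dual knockdown cells both dsRNAs, in either case for 4 days. The series holds 8 groups of 3 biological replicates, with dsRNA against *GFP* (the control), *lid*, *Sin3A* or both, each without paraquat and with 8.3 mM paraquat for 24 h. All groups are the same wild type S2 line. Each FPKM value is a single figure for a whole group, because Cuffdiff had combined its 3 replicates. The comparison of the dual with the *Sin3A* knockdown therefore has no replicate error and no test of its own, and the reads behind a value are unknown. These are bulk RNA values, in which fewer cells of a kind and less RNA per cell cannot be told apart.

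SIN3 is the scaffold of a histone deacetylase complex in which RPD3 is the enzyme, and its loss raises or lowers transcription depending on the gene. dKDM5/LID, encoded by *lid*, removes methyl groups from lysine 4 of histone H3, a mark of active promoters, and also binds the SIN3 complex. Adding *lid* dsRNA to the *Sin3A* knockdown asks what the demethylase contributes when its partner is targeted as well.

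The target of the added dsRNA was lower in the dual knockdown. The *lid* gene (dm3 chromosome 2L, 5989463 to 5999501) stood at 39.1 FPKM in the *Sin3A* knockdown and at 16.9 FPKM in the dual knockdown, 2.31-fold lower. The *GFP* control held 37.2 FPKM and the *lid* knockdown 14.9 FPKM. With paraquat, *lid* fell from 35.8 to 15.4 FPKM in the *GFP* background and from 43.0 to 17.0 FPKM in the *Sin3A* background. All 4 groups with *lid* dsRNA thus lay below all 4 without it. *Sin3A* transcript was listed at 67.9 FPKM in the control and at 61.7 and 58.0 FPKM in the *Sin3A* and dual knockdowns. These values do not show the depletion of SIN3 at the transcript level. By the paper, lower SIN3 protein after this dsRNA was routinely checked by western blot. Of the other genes that encode SIN3 or dKDM5/LID complex members, none moved past 1.4-fold, and 90.7% of all 7677 loci stayed within it. *Rpd3*, the deacetylase, was at 72.9 and 69.4 FPKM, and *Caf1*, a histone-binding subunit, at 115 and 114 FPKM.

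The markers of the S2 line had similar levels in both groups. Of 10 plasmatocyte markers, 8 were at or above 1 FPKM, 1 of them in a locus shared with another gene, and their summed level was 643 FPKM in the *Sin3A* knockdown and 621 FPKM in the dual knockdown. *Hml*, a defining hemocyte marker, was below 1 FPKM in every group, while *srp*, the hemocyte GATA factor, was at 68.6 and 64.8 FPKM. No fat body marker and no germ line or ovarian soma marker reached 1 FPKM in either group. The marker *elav* of neurons was at 4.98 and 5.03 FPKM, and *Mlc2* of muscle at 1.46 and 1.75 FPKM.

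In the text below, a locus rose or fell if its log2 ratio of dual over *Sin3A* knockdown, with 0.1 FPKM added to both values, passed 1.4-fold, which is 0.49 on the log2 scale. By this fold alone 454 loci rose, 5.91% of the 7677, and 258 fell, 3.36%. The counts of the gene lists below are to be read against these shares. The median log2 ratio was -0.03, and its 5th and 95th percentiles were -0.41 and 0.52. A large part of the extreme values came from loci named for small RNAs, such as small nucleolar RNAs and microRNA precursors. Of 203 such loci 71.9% passed 1.4-fold, 78 up and 68 down, against 7.57% of the 7474 other loci. Small RNA loci made up 79 of the 82 loci listed at 0 FPKM in one group and at or above 1 FPKM in the other. A stricter filter, set once the data were known, asked for 5 FPKM or more in each of the 2 groups and left out small RNA names. Under it 231 of 6350 rose, 3.64%, and 79 fell, 1.24%. Only 9 of these rose 2-fold and 10 fell 2-fold. The nearest loci on either side of the limit were *RpL23* and *CG9205*, both at 0.49, just inside, and *CG17350* and *CG8036*, both at 0.48, just outside.

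**Figure D1:**
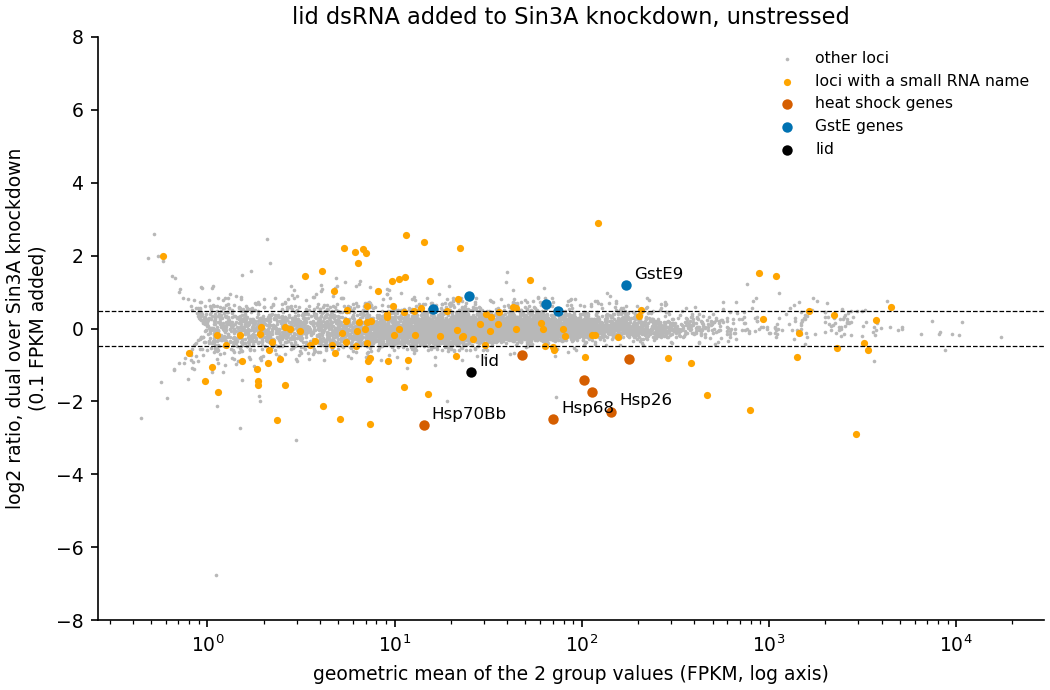
Log2 ratio of dual over Sin3A knockdown (0.1 FPKM added) against the geometric mean of the 2 group values in FPKM (log axis), for loci above 0 in both groups; dashed lines mark 1.4-fold. The heat shock genes lie below the main cloud, with Hsp26 at -2.28, Hsp68 at -2.49 and Hsp70Bb at -2.65, GstE9 lies above it at 1.20, and many small RNA loci scatter in both directions.

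Heat shock genes gave the 3 lowest log2 ratios among the 6350 loci of the stricter filter. Of 19 measured loci in the heat shock list 11 fell and none rose, while 3.36% of all loci fell. The median log2 ratio was -0.84, against -0.03 over all 7677 loci. It was smaller in size without the *Hsp70* copies, by the value given at the end of the report. The list had been drawn up with earlier results of these data known, and its lower levels in the knockdowns were part of them. *Hsp26*, a small heat shock protein that holds unfolded proteins in solution, on chromosome 3L of dm3 from 9369518 to 9370475, went from 315 to 64.7 FPKM, 4.86-fold lower. Its neighbours *Hsp27* and *Hsp23* went from 208 to 61.9 FPKM and from 167 to 63.0 FPKM. The shared locus of *Hsp22* and *Hsp67Bb* in the same cluster went from 139 to 37.9 FPKM. These small heat shock loci were thus at least 2.65-fold lower in the dual knockdown.

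The inducible chaperones of the Hsp70 class moved with them. *Hsp68*, on chromosome 3R from 19880113 to 19883032, went from 167 to 29.5 FPKM, 5.65-fold lower. *Hsp70Bb* went from 36.0 to 5.66 FPKM and *Hsp70Bc* from 8.92 to 0.985 FPKM. The *Hsp70* copies are nearly identical in sequence, so the division of reads among them is uncertain. *alphagamma-element:CR32865*, a non-coding transcript from the same region as the *Hsp70B* copies, went from 38.2 to 9.49 FPKM. The co-chaperones fell less: *DnaJ-1*, an Hsp40 protein, went from 238 to 133 FPKM and *stv*, a BAG domain protein, from 61.5 to 37.4 FPKM. *Hsp83*, the fly Hsp90, was at 1811 and 1353 FPKM, a log2 ratio of -0.42, which did not pass 1.4-fold.

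The constitutive chaperones stayed within 1.4-fold. *Hsc70-4*, the main cytosolic cognate, was at 2131 FPKM in the *Sin3A* knockdown and 2291 FPKM in the dual knockdown, and *Hsc70-3* of the endoplasmic reticulum at 1064 and 972 FPKM. *Hsf*, the transcription factor of the heat shock response, was at 71.7 and 68.0 FPKM. None of 16 measured loci of the unfolded protein response passed 1.4-fold in either direction, and 90.7% of all loci stayed within it.

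Heat shock transcripts stepped down across the unstressed groups. *Hsp26* was at 667 FPKM in the *GFP* control. It was at 309 and 315 FPKM after *lid* or *Sin3A* dsRNA alone and at 64.7 FPKM after both. In the groups with paraquat it was at 112, 106, 117 and 103 FPKM for *GFP*, *lid*, *Sin3A* and both. The dual knockdown without paraquat was thus the lowest of all 8 groups for this gene. *Hsp68* showed similar steps, from 346 FPKM in the control through 171 and 167 FPKM to 29.5 FPKM, and lay between 45.0 and 48.3 FPKM in the groups with paraquat. Across the list, *lid* dsRNA gave a median of -0.75 in the *GFP* background, where 11 loci fell, and gave medians of 0.04 and -0.02 in the *GFP* and *Sin3A* backgrounds with paraquat, where 0 and 1 loci fell. Over all loci, 336 fell past 1.4-fold in the *GFP* background, 4.38%.

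The difference between the unstressed and stressed backgrounds was fitted with limma, with the background as a block. This test was chosen once the data were known. The values of the dual and *Sin3A* knockdowns entered it, so its effects and p-values are given as a description. The extra log2 effect without paraquat was -1.34 ± 0.10 (SE) for *Hsp23* with an adjusted p = 0.143, and -1.57 ± 0.40 for *Hsp26* with an adjusted p = 0.188. None of the heat shock loci passed 0.05. Over the 7677 loci 1 passed, 0.0130%, and 1495 had an unadjusted p under 0.05, 19.5%, of which those lower without paraquat made up 9.05% of all loci.

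**Figure D2:**
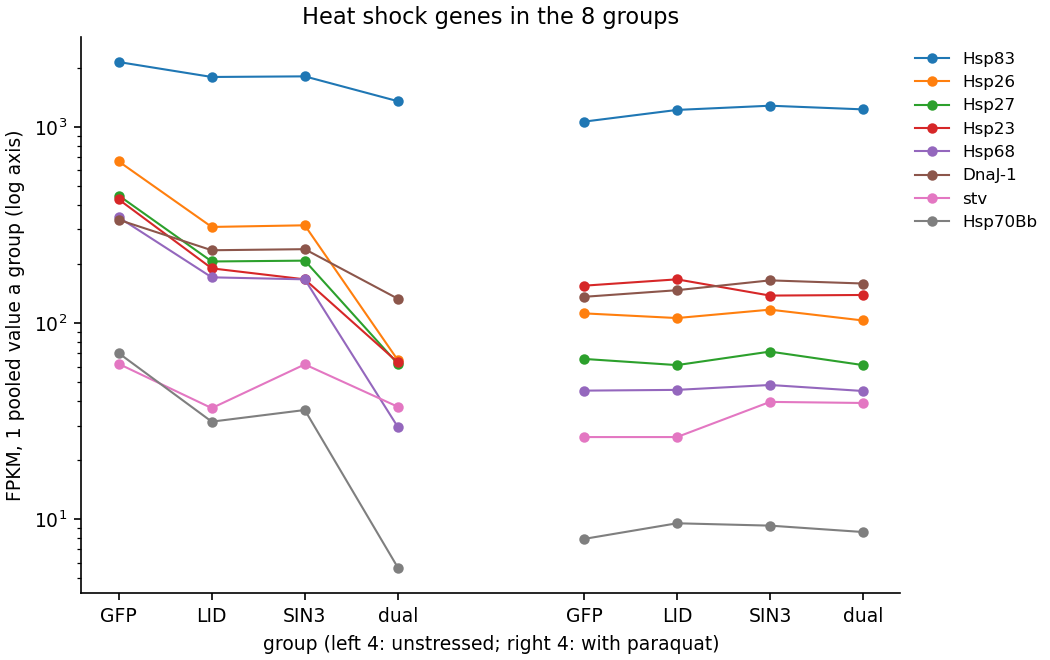
FPKM (log axis) of 8 heat shock genes in the 8 groups, 1 pooled value a group, joined by lines within the unstressed and the paraquat groups. Hsp26 steps down from 667 to 64.7 FPKM across the unstressed groups and stays between 103 and 117 FPKM with paraquat.

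The same addition of *lid* dsRNA was made in 3 other backgrounds, *GFP* RNAi without paraquat, *GFP* RNAi with paraquat and *Sin3A* knockdown with paraquat. These 6 groups share no library with the comparison above and were used to ask which changes recur. With the background as a block, limma on the group values takes the spread of the *lid* effect between backgrounds as its error. In the other 3 backgrounds alone only *lid* itself passed an adjusted p of 0.05 (1 of 7677 loci, 0.0130%; adjusted p = 0.0388), while 1476 loci, 19.2%, had an unadjusted p under 0.05. Of the 454 loci that rose in the unstressed *Sin3A* background, 26.0% also rose in the other 3 at an unadjusted p under 0.05, against 10.6% of all loci. Of the 258 that fell, 30.2% fell there, against 8.68% of all loci.

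With the unstressed *Sin3A* background included, 237 loci passed, 3.09%, with 145 higher with *lid* dsRNA, 1.89%, and 92 lower, 1.20%. All 237 had the same direction in the 4 backgrounds. This count depends on having all 4. It was 0 without the unstressed *GFP* background, 2 without *GFP* with paraquat, 1 without the unstressed *Sin3A* background and 3 without *Sin3A* with paraquat. Of the 237 loci, 86 passed 1.4-fold in the unstressed *Sin3A* background, 54 up and 32 down. The values of the dual and *Sin3A* knockdowns entered this fit, so its calls and effects are given as a description and support nothing about the loci singled out for their ratio in that comparison. For these loci the adjusted p-values in the next paragraphs come from the other 3 backgrounds alone, where none but *lid* passed. That of *RpL8* comes from the fit of unstressed against stressed backgrounds. Each of 22 loci called over the 4 backgrounds and drawn in the plot of the 4 backgrounds had an adjusted p above 0.05 in at least one alternative fit.

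Glutathione S-transferases, which couple glutathione to reactive compounds, were higher with *lid* dsRNA in several members. Of 26 measured loci 7 rose and none fell, with a median log2 ratio of 0.25, while 5.91% of all loci rose and 3.36% fell. In the dual knockdown 8 of the 26 were lower. In the *GFP* background their median was 0.02, with 3 rises and 1 fall. With paraquat it was 0.29 in *GFP* and 0.25 in *Sin3A*. Over the other 3 backgrounds 10 rose and 5 fell at an unadjusted p under 0.05 (limma). Of all loci 10.6% rose and 8.68% fell there. *GstE9*, on chromosome 2R of dm3 from 14296516 to 14299024, went from 113 FPKM in the *Sin3A* knockdown to 260 FPKM in the dual knockdown, 2.29-fold higher. It was at 90.9 and 218 FPKM without and with *lid* dsRNA in the *GFP* background, at 163 and 352 FPKM in *GFP* with paraquat, and at 237 and 426 FPKM in *Sin3A* with paraquat. Each group with *lid* dsRNA was thus above its partner, with log2 ratios of 1.26, 1.11 and 0.84 in the other 3 backgrounds. The test over those 3 was not passed (limma, adjusted p = 0.109).

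Its neighbours in the *GstE* cluster were higher too. *GstE2* went from 18.4 to 34.3 FPKM, a log2 ratio of 0.90, with 0.99, 0.80 and 0.61 in the other backgrounds (adjusted p = 0.109 over those 3). *GstE8* went from 51.3 to 81.5 FPKM and *GstE7* from 13.4 to 19.4 FPKM, with adjusted p-values of 0.109 and 0.137 in the other 3. *GstE6* went from 62.8 to 88.1 FPKM, with an adjusted p = 0.177 there. The locus that holds *GstD1* and *GstD9* went from 329 to 492 FPKM. The locus *GstD1,GstD9* had log2 ratios of 0.60, 0.44 and 0.60 in the other backgrounds (adjusted p = 0.109). *Mgstl*, the microsomal enzyme, went from 65.1 to 110 FPKM but had a log2 ratio of -0.25 in *GFP* with paraquat. The members that share a cluster are related in sequence, which leaves the assignment of reads between them uncertain.

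Other antioxidant genes mostly stayed within 1.4-fold, as did 90.7% of all loci. Of 20 loci encoding redox enzymes or the cnc/Keap1 regulators 2 rose and none fell, against 5.91% and 3.36% of all loci. These were *Sod*, from 121 to 185 FPKM, and *Trxr-1*, from 134 to 197 FPKM. *Sod*, the cytosolic superoxide dismutase, had log2 ratios of 0.60 here, 0.20 in *GFP*, -0.57 in *GFP* with paraquat and -0.24 in *Sin3A* with paraquat. *PHGPx*, a glutathione peroxidase, was at 375 and 454 FPKM, within 1.4-fold, with log2 ratios of 0.32, 0.41 and 0.21 in the other backgrounds (adjusted p = 0.129). *cnc*, the fly Nrf2 factor, had a log2 ratio of 0.04 and its inhibitor *Keap1* was at 23.1 and 24.3 FPKM.

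Of the 6350 loci of the stricter filter, 6 rose past 1.4-fold in all 4 backgrounds and 3 fell in all 4. Beside *GstE9* and *GstE2*, the rises were *nvy*, *CG10157*, *CG1607* and *yin*. *nvy*, a corepressor of the ETO family, went from 6.52 to 11.5 FPKM, and *CG10157*, in RefSeq *GILT2*, from 6.48 to 13.5 FPKM. *yin*, an oligopeptide transporter, went from 23.1 to 34.6 FPKM and had nearly the same log2 ratio in every background, 0.58, 0.58, 0.56 and 0.56. The amino acid transporter gene *CG1607* went from 82.9 to 128 FPKM. The falls were *lid*, *CG30046* and *Nplp2*. *CG30046*, on chromosome 2R from 8201624 to 8204736, went from 17.0 to 7.97 FPKM and had log2 ratios of -1.23, -1.08 and -0.98 in the other backgrounds (adjusted p = 0.109). *Nplp2*, which encodes a secreted neuropeptide-like precursor, went from 10668 to 7070 FPKM, and from 24886 to 15945 FPKM in the *GFP* background.

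At lower levels, *CG8086* went from 3.26 to 7.12 FPKM, *CG42268* from 2.79 to 5.80 FPKM, and the ribosomal protein paralog *RpS19b* from 2.02 to 3.96 FPKM. The locus of *CG11638* and *CG32814* went from 2.63 to 6.19 FPKM. Among the falls, *alpha-Est7*, a carboxylesterase, went from 1.31 to 0.549 FPKM, *CG3038* from 4.01 to 2.19 FPKM and *CG7565* from 31.0 to 17.1 FPKM. All 7 loci had the same direction in the other 3 backgrounds, with adjusted p-values between 0.109 and 0.129 there.

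**Figure D3:**
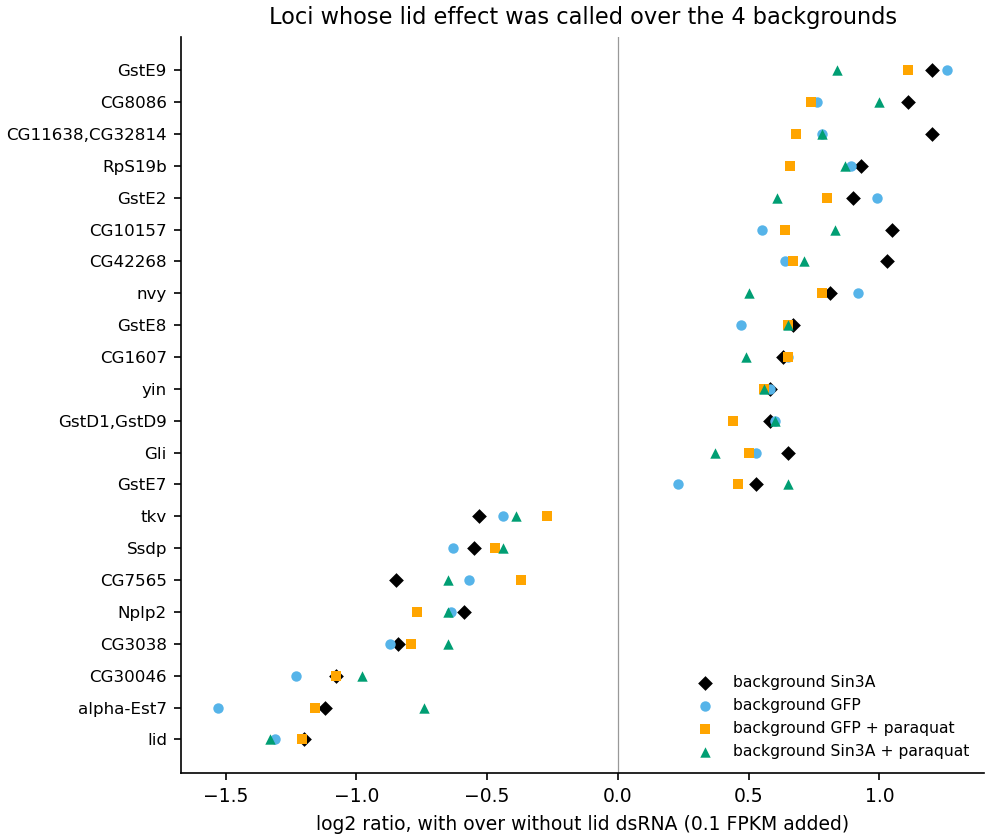
Log2 ratio with over without lid dsRNA (0.1 FPKM added) for 22 loci called over the 4 backgrounds, with 1 symbol for each background. For yin the 4 symbols lie between 0.56 and 0.58; for alpha-Est7 they spread from -1.53 to -0.74.

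Genes of the respiratory chain and of the cytosolic ribosome had positive medians with *lid* dsRNA in both unstressed backgrounds and negative ones in both stressed backgrounds. The list of respiratory chain and ATP synthase subunits was made from current RefSeq symbols after the data had been seen. Of 60 measured loci 19 rose, none fell and 52 were higher in the dual knockdown, with a median log2 ratio of 0.34. Of all 7677 loci 3466 were higher, and 5.91% rose. Complex I, the NADH dehydrogenase, held 11 of the rises among 32 loci. *CG9034*, annotated as *NdufA3*, went from 23.3 to 69.0 FPKM, 2.96-fold higher, and *CG5548*, annotated as *ND-B18*, from 25.2 to 61.4 FPKM. In complex III the Rieske iron-sulfur protein gene *RFeSP* went from 42.7 to 92.1 FPKM, and in complex IV *levy* from 69.3 to 121 FPKM. In the *GFP* background the median of the 60 loci was 0.14 and 3 rose. With paraquat it was -0.19 in *GFP*, where 13 fell, and -0.08 in *Sin3A*, where 1 fell. Over all loci, 301 fell past 1.4-fold in *GFP* with paraquat, 3.92%, and 123 in *Sin3A* with paraquat, 1.60%.

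Cytosolic ribosomal protein genes moved less. Of 82 loci 18 rose and 1 fell, with a median of 0.18, against shares of 5.91% and 3.36% over all loci. *RpL8*, on chromosome 3L from 2587456 to 2588883, went from 499 to 1157 FPKM, 2.32-fold higher. It was at 594 and 868 FPKM in the *GFP* background, but at 1564 and 775 FPKM in *GFP* with paraquat and at 1393 and 1062 FPKM in *Sin3A* with paraquat. The *lid* effect on *RpL8* thus had opposite signs without and with paraquat. The extra log2 effect without paraquat was 1.58 ± 0.31 (SE; limma, adjusted p = 0.179). The values of the comparison itself entered that fit, so this is a description. *RpL26* went from 810 to 1587 FPKM. *RpL28* was the exception, from 4963 FPKM to 2688 FPKM. Its 8 group values jumped between 2139 and 7036 FPKM. The mitochondrial ribosomal proteins had a median of 0.01, and 4 of 70 rose, against 5.91% of all loci. These were *mRpS14*, *mRpL16*, *mRpL42* and *mRpL2*.

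Of 13 loci of glycolytic enzymes 2 passed 1.4-fold. The median was 0.29, and 12 were higher in the dual knockdown, as were 3466 of all 7677. Past 1.4-fold, 5.91% of all loci rose. *Tpi*, the triosephosphate isomerase, went from 104 to 193 FPKM and *Eno*, the enolase, from 221 to 347 FPKM. In the *GFP* background the median was also 0.29, and it was 0.02 and 0.06 with paraquat. In the methionine cycle and one-carbon list *CG3011*, annotated as *Shmt* for serine hydroxymethyltransferase, went from 51.9 to 92.9 FPKM and *Ahcy13*, an S-adenosylhomocysteine hydrolase, from 223 to 352 FPKM. The other 8 measured loci of that list stayed within 1.4-fold.

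Over the same 6350 loci, the *lid* effect in the unstressed *Sin3A* background ranked loci much as it did in the unstressed *GFP* background, with a Spearman coefficient of 0.68. The coefficient was 0.34 with the stressed *Sin3A* background and -0.02 with the stressed *GFP* background. These are descriptions over loci of single group values, and the pairs share no libraries. Among the 231 rises 96.5% were higher in the *GFP* background, against 51.3% of the 6350, and 20.3% passed 1.4-fold, against 1.04%. Over the 7677 loci, 169 rose past 1.4-fold in the *GFP* background, 2.20%, 198 in *GFP* with paraquat, 2.58%, and 179 in *Sin3A* with paraquat, 2.33%. In *GFP* with paraquat 39.0% of the 231 were higher, against 60.7% of the 6350, and 47 fell past 1.4-fold, 20.3% against 1.67%. Among the 79 falls 93.7% were lower in the *GFP* background, 67.1% in *GFP* with paraquat and 79.7% in *Sin3A* with paraquat, against 48.7%, 39.3% and 48.4% of the 6350. The effect of *Sin3A* dsRNA itself in stressed cells, which uses other libraries, had a Spearman coefficient of 0.05 with the *lid* effect.

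**Figure D4:**
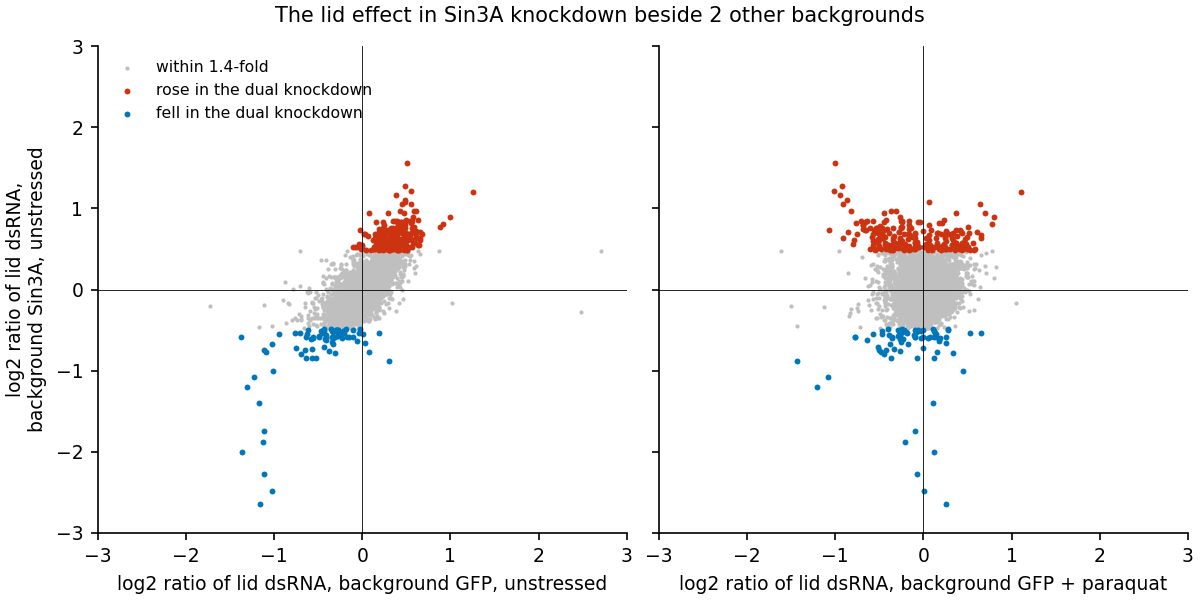
Log2 ratio of lid dsRNA in the unstressed Sin3A background (y) against that in the unstressed GFP background (left) and in GFP with paraquat (right), over the 6350 loci of the stricter filter; red marks the 231 rises and blue the 79 falls. The red points lie right of 0 in the left panel and on both sides of 0 in the right panel.

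Antimicrobial and immune genes moved in both directions. Of 28 loci of the Toll and Imd pathways 2 rose and 7 fell, with a median of -0.16. The shares over all loci were 5.91% and 3.36%. The falls held effector peptides and receptors. *CecA1* and *CecA2*, cecropins that attack bacterial membranes, went from 105 to 67.3 FPKM and from 54.4 to 34.4 FPKM. *AttB*, an attacin, went from 13.6 to 7.90 FPKM, and *AttA* from 6.30 to 4.43 FPKM. *DptB*, *PGRP-LB* and *PGRP-SD* also fell, all from levels under 2 FPKM. *CecC*, another cecropin, went the other way, from 4.13 to 10.4 FPKM, as did *PGRP-SA*, a receptor of the Toll pathway, from 22.5 to 32.9 FPKM. The signalling members *Rel*, *Dif*, *imd* and *Myd88* stayed within 1.4-fold. *dl*, the Dorsal factor, was at 103 and 141 FPKM, within 1.4-fold. The cecropin and attacin genes are close copies, so their separate values are uncertain.

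In the Notch and Dpp pathways 2 of 23 loci rose and 3 fell, where 5.91% of all loci rose and 3.36% fell. The receptor *tkv* of the Dpp ligand went from 18.7 to 13.0 FPKM, and *Ssdp*, a cofactor of the LIM domain complex, from 24.2 to 16.5 FPKM. Both were lower with *lid* dsRNA in the other 3 backgrounds as well, without passing the test there (adjusted p = 0.129 and adjusted p = 0.109). *Dad*, the inhibitory Smad, went from 16.0 to 10.0 FPKM, with log2 ratios of -0.67 here and -1.02 in *GFP*, but 0.06 in *Sin3A* with paraquat. The ligand gene *gbb* went up from 39.5 to 65.3 FPKM and *Chi*, the partner of *Ssdp*, from 18.6 to 27.9 FPKM. In the JNK pathway *Mmp1*, a matrix metalloproteinase, went from 66.6 to 116 FPKM and *wgn*, a receptor of the TNF ligand Eiger, from 19.3 to 27.5 FPKM. None of its 19 loci fell.

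Of 22 loci of septate junctions, which seal epithelia, 18 were higher in the dual knockdown, as were 3466 of all 7677, and the median was 0.12. *Gli* and *pck* rose, from 35.8 to 56.3 FPKM and from 39.5 to 56.6 FPKM. The medians in the other 3 backgrounds were 0.17, 0.17 and 0.19. None of the 22 loci passed the test over those 3, where only *lid* passed among all 7677. At an unadjusted p under 0.05 (limma) 11 of the 22 rose there and 1 fell. Of all loci 10.6% rose and 8.68% fell there.

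Cell cycle and replication genes mostly stayed within 1.4-fold, as did 90.7% of all loci. None of 37 DNA replication loci passed it, with a median of -0.09. The medians in the other 3 backgrounds were -0.14, -0.10 and -0.10. In the dual knockdown 26 were lower, as were 4211 of all 7677. Over the other 3 backgrounds 10 of the 37 fell and none rose at an unadjusted p under 0.05 (limma). Of all loci 8.68% fell and 10.6% rose there. Of 39 cell cycle regulators *feo* alone rose, from 14.5 to 23.7 FPKM, and none fell. The median was -0.13, and 28 of the 39 were lower in the dual knockdown. Over the other 3 backgrounds 13 of them fell and 2 rose at an unadjusted p under 0.05 (limma). *Sin3A* dsRNA in stressed cells, in other libraries, lowered 19 of the replication loci and 18 of the cell cycle loci past 1.4-fold, and 913 of all 7677 loci, 11.9%. *dap*, an inhibitor of cyclin E kinase, was at 35.7 and 28.0 FPKM and was lower in all 4 backgrounds (adjusted p = 0.109 in the other 3). Among metal and iron genes only *MtnB*, a metallothionein, rose, from 0.270 to 1.24 FPKM. *His3.3A*, a gene of the replacement histone H3.3, went from 92.8 to 157 FPKM, whereas the linker histone locus *His1:CG33834* went from 52.6 to 32.2 FPKM. None of the loci of insulin, TOR and Foxo signalling, apoptosis, RNA interference, the ecdysone response, proteasome or aminoacyl-tRNA synthetase lists passed 1.4-fold. The share of all loci within that limit was 90.7%. Of 12 loci for writers and erasers of histone methylation only *Dpy-30L1* rose, from 14.3 to 25.4 FPKM, where 5.91% of all loci rose.

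**Figure D5:**
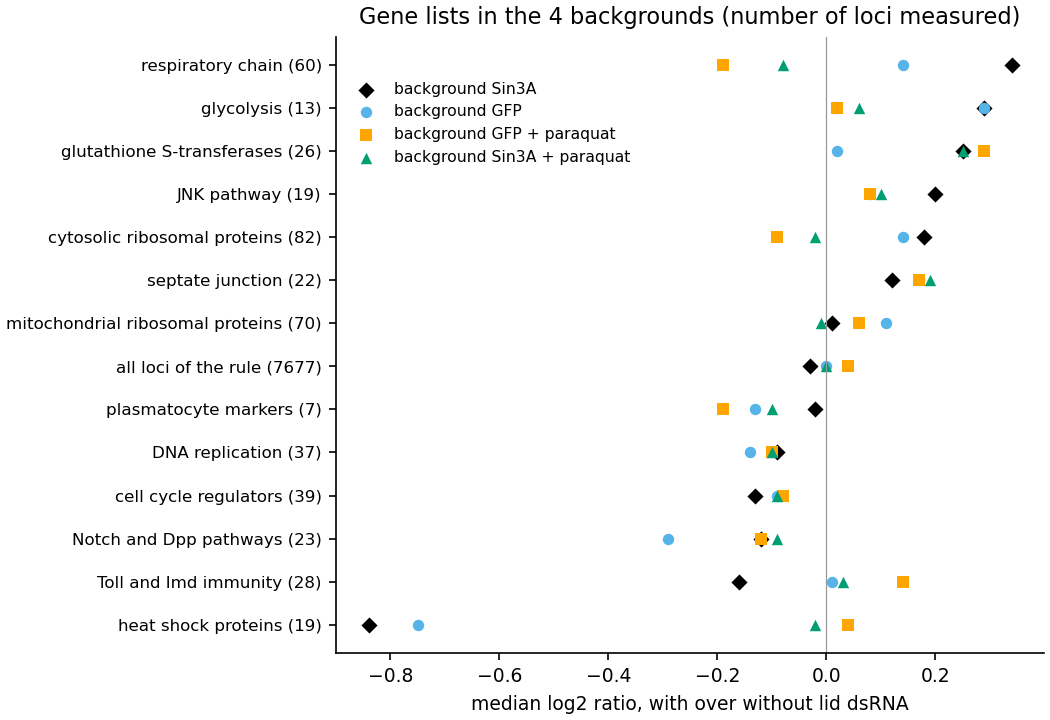
Median log2 ratio with over without lid dsRNA of 13 gene lists and of all 7677 loci in the 4 backgrounds, with the number of loci measured in brackets. The heat shock median is -0.84 and -0.75 in the unstressed Sin3A and GFP backgrounds and near 0 with paraquat, and the respiratory chain median goes from 0.34 to -0.19.

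Whether any locus responded to *lid* dsRNA in the unstressed *Sin3A* background and otherwise elsewhere was fitted with limma as an extra effect in that background. That effect rests on 1 pair of group values, those of the comparison itself, so the counts are a description. Of 7677 loci 13 passed, 0.169%, with 8 higher, 0.104%, and 5 lower, 0.0651%. An unadjusted p under 0.05 was reached by 491 loci, 6.40%, with 3.09% higher and 3.31% lower. All 13 are loci named for small RNAs that were listed at 0 FPKM in one of the 2 groups, and 7 were at 0 in the other 6 groups too. These 7 were included only through the group where they are high, and their equal zeros elsewhere make the fitted error small. The microRNA locus *mir-7* was listed at 0 in 7 groups and at 399 FPKM in the dual knockdown, and *mir-2a-2* at 0 in the same 7 and at 722 FPKM in the dual knockdown. *snoRNA:CD-24* was listed at 966 FPKM in the *Sin3A* knockdown and at 0 in the other 7 groups. The 12 highest and 12 lowest log2 ratios among loci with 5 FPKM or more in one group were likewise all small RNA loci at 0 in the other group, and 20 of the 24 were at 0 in a further group as well. *snoRNA:U31:54Ed*, for example, was at 4064 FPKM in the *Sin3A* knockdown and 0 in the dual knockdown, at 3680 and 3407 FPKM in the unstressed *GFP* and *lid* groups, and at 0 in 2 of the paraquat groups. No fold is given for such loci.

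Outside the small RNA loci, no locus passed that fit's threshold. *CG6749*, on chromosome 3L from 9724338 to 9726907, was chosen after its values were seen. It stood at 0.0681 FPKM in the dual knockdown, 265-fold below its level in the *Sin3A* knockdown. That fold was taken without the 0.1 FPKM added and divides by a value below 0.1 FPKM, so its size is uncertain. In the other 6 groups *CG6749* was between 0.124 and 0.326 FPKM. The high value was thus that of the *Sin3A* knockdown alone, through which the locus was included. *CG8051* and *her*, which stood at 170 and 175 FPKM in the unstressed *lid* knockdown against 25.8 and 31.2 FPKM in the control, did not do so here. *CG8051* was at 16.7 FPKM in the *Sin3A* knockdown and 23.4 FPKM in the dual knockdown, and *her* at 30.9 and 25.4 FPKM.

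The chromosome of a locus went with its ratio. Under the stricter filter, 83 of 1035 on chromosome X rose, 8.02%, and 3 fell, while between 1.87% and 3.66% rose on the arms of chromosomes 2 and 3. The median log2 ratio on X was 0.10, and on those arms between -0.07 and -0.04. In the *GFP* background the X median was 0.09, against -0.02 to -0.00 on those arms. In *GFP* with paraquat it was 0.04, against 0.04 to 0.05, so X did not stand above the arms there, and in *Sin3A* with paraquat it was 0.03, against -0.00 to 0.00. On chromosome 4 the median was -0.13 and none of 56 loci rose. Short transcripts had the wider spread. Of 193 loci with transcripts of up to 600 bases 12.4% rose and 4.66% fell, against 1.09% and 0.907% of 1103 loci over 4000 bases. The medians of these classes were -0.04 and -0.03, and the Spearman coefficient of ratio and length was -0.05 over 5998 loci. The lengths come from a dm6 annotation matched by gene name, for 98.7% of the loci. Cytosolic ribosomal protein transcripts have a median length of 882 bases, and 21.2% of them rose, against 7.48% of 829 other loci of up to 1000 bases. The part of position and length in the results above was not tested further.

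The spread also differed with expression level. Among loci outside the small RNAs whose higher value was below 5 FPKM, the log2 ratios had an SD of 0.51 and 11.0% rose. Between 5 and 20 FPKM the SD was 0.34 and 5.08% rose, and between 20 and 100 FPKM the SD was 0.23 and 3.21% rose. From 100 FPKM up both were higher again, with an SD of 0.27 and 5.34% rising. The group values sum to 749891 FPKM in the *Sin3A* knockdown and 758637 FPKM in the dual knockdown, and between 792693 and 814105 FPKM in the other 6 groups. Between 7537 and 7764 loci reach 1 FPKM in a group. Of the summed FPKM, 13.3% lay in the 10 most abundant loci of the *Sin3A* knockdown and 11.7% in those of the dual knockdown.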

How the data were processed

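RNA was sequenced from 8 groups of S2 cells with 3 biological replicates each. The authors' deposited values are FPKM per gene locus from Cuffdiff, with 1 value for all replicates of a group, in 7 tables of 14542 loci against dm3. The submitters' processing notes name bcl2fastq, Cuffdiff and dm3. By the study's methods, reads were aligned with Bowtie/Tophat and assembled with Cufflinks, and the versions of these and of Cuffdiff are not given in the sources used here. The tables' fold change, test statistic, p-value and q-value columns hold the authors' own comparisons and were not used. The tables hold no read counts, so the reads behind each value are not known.

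The log2 ratio of dual over *Sin3A* knockdown used FPKM plus 0.1, for loci with at least 1 FPKM in one of the 2 groups, and 1.4-fold as the limit, with no test. This scale understates changes of low genes. limma 3.58.1 in R 4.3.3 was fitted to log2(FPKM + 0.1) of the group values with a variance trend and the background as a block, and p-values were Benjamini-Hochberg adjusted over the 7677 loci, at 0.05. Its error is the spread of the *lid* effect between backgrounds, with 3 residual degrees of freedom over 4 backgrounds and 2 over the other 3. The fits were also run on simulated group values with independent noise of equal size and no zeros. That run says nothing about loci listed at 0 FPKM. Tables and plots used Python 3.11.15, pandas 2.3.3, NumPy 2.4.6 and matplotlib 3.10.9.

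The loci and the 29 gene lists, which cover the pathways, complexes and cell markers described in the report, were chosen with earlier results of these data known. Loci with several gene names were counted apart from the lists. The loci named were the dsRNA targets, the 12 largest rises and falls with 1 gene name and 5 FPKM in one group, list members past 1.4-fold, the 6 called loci with the largest change in each direction, *CG8051* and *her*. After the data had been seen, the 12 largest rises and falls with 5 FPKM in both groups and no small RNA name, the respiratory chain list, the test of paraquat, *CG6749*, other called loci and unchanged list members were added. The list of histone genes was matched by the start of the name and also took up *HisCl1*, a histamine-gated chloride channel, so its count is not given. Coordinates are dm3, counted from 1. Transcript lengths came from a dm6 annotation by gene name, and current symbols from RefSeq.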

Additional observations from a re-analysis of the deposited data

Results flagged for a closer look

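In the limma fit of an extra *lid* effect in the unstressed *Sin3A* knockdown against the other 3 backgrounds, 13 loci passed, all named for small RNAs and all listed at 0 FPKM in one of the 2 groups. The adjusted p was 0.00875 for *mir-2a-2*, *snoRNA:Me18S-U1356a*, *snoRNA:Psi28S-2442b* and *snoRNA:CD-24*, and 0.00989 for *mir-7*. It was 0.0148 for *snoRNA:Me28S-G3255b*, 0.0155 for *mir-278* and *mir-995*, and 0.0191 for *snoRNA:Me28S-G3253*. It was 0.0212 for *snRNA:U5:23D*, *scaRNA:pUf68-a* and *snoRNA:Or-CD10*, and 0.0475 for *snoRNA:Psi18S-525c*. The fit rests on 1 pair of group values, those of the comparison itself. Of the 13 loci, 7 were listed at 0 in the 6 other groups as well, so they were included only through the group where they are high, and equal zeros make their error small. The p-values are therefore given as a description. *mir-995* was listed at 134 FPKM in the dual knockdown and *mir-278* at 143 FPKM in the *Sin3A* knockdown. In the limma fit of unstressed against stressed backgrounds *snoRNA:Me18S-G1620* passed (adjusted p = 0.00111). It was listed at 1137 and 1095 FPKM in the unstressed *GFP* and *Sin3A* groups and at 0 in the *lid* and dual knockdowns. With paraquat it was at 1159 FPKM in *GFP* and 745 FPKM in *lid*, and at 0 in both *Sin3A* groups. The values of the comparison entered this fit and zeros set its small error, so this p-value is a description too. What sets the zeros of these loci was not tested.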

How the results depend on the processing

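No paired analysis was possible because each deposited value combines the 3 replicates of a group, and for the same reason no replicate could be left out. No direction reversed under the alternatives run. The 454 rises became 1048 over every locus above 0 FPKM, 108 at 2-fold and 231 with 5 FPKM in both groups and no small RNA name, a filter chosen after seeing the data. The 258 falls became 804, 79 and 79 under these settings, and 141 with 5 FPKM in one group. The share of calls that rose was 63.8%, and 56.6%, 57.8%, 60.1% and 69.0% over every locus above 0, at 2-fold, after scaling the sums and after centring. It was 70.1% with 5 FPKM in one group and 74.5% with the filter chosen after seeing the data. In the other 3 backgrounds the count of 1 became 0 without a variance trend and 5 without either *GFP* with paraquat or *Sin3A* with paraquat. Over the 4 backgrounds the count of 237 became 102 without a trend, 1 without the unstressed *Sin3A* background, 0 without the unstressed *GFP* background, 2 without *GFP* with paraquat and 3 without *Sin3A* with paraquat. The 13 loci with another effect in the unstressed *Sin3A* background became 33 without the unstressed *GFP* background and 29 without either stressed one. The cause of these shifts was not tested. The heat shock median of -0.84 was -0.71 with 1 FPKM added, -0.57 with 5 FPKM in one group and -0.42 without the *Hsp70* copies, the last chosen after seeing the data. Of 119 named loci 43 moved by 0.1 or more on the log2 scale with 1 FPKM added and 32 after scaling, and 0 changed sign.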
